A study of Mus musculus with 3 samples.

Results

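*Mapt*, which encodes the microtubule-binding protein tau, was followed together with 9 other microtubule genes in 3 mouse colon cancer cell lines. The 10 genes were *Mapt*, *Map1a*, *Map1b*, *Map2*, *Map4*, *Map7*, *Tubb3*, *Tubb2b*, *Stmn1* and *Stmn2*, out of 22911 genes named on the array. Their probes were found by matching the transcript accession of each probe to the gene symbol, which gave 22 probes out of 32994 named ones. *Mapt* was selected on these same arrays as a gene with a very large LuM1 signal, and the other genes were picked with earlier results of these arrays known. The ratios of *Mapt* are therefore a description and not a test.

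Total RNA came from Colon26, a colon adenocarcinoma line from a female BALB/c mouse, and from its sublines LuM1, which metastasises readily, and NM11, which metastasises little. All 3 lines had grown for 3 days on plates, without treatment, in RPMI1640 medium with serum, penicillin, streptomycin and amphotericin B. Each line was measured on 1 array (Cy3, 1 colour), so there were no replicates, no spread between cultures was known, and no test was made. Differences were read against the scanner's own error of each spot, which leaves out culture and labelling differences.

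Microtubules are hollow polymers of alpha- and beta-tubulin that grow and shrink at their ends. In neurons, tau and the MAP1 and MAP2 proteins bind along the polymer and keep axons and dendrites stable, whereas stathmins bind free tubulin dimers and favour disassembly. MAP4 and MAP7 have similar roles in many cells outside the nervous system, with MAP7 recruiting kinesin-1. The class III beta-tubulin *Tubb3* is widely used as a neuronal marker, and *Tubb2b* is abundant in developing neurons.

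All signals below are scaled so that the 75th percentile of every array was 585.1, and a probe was counted as detected where the scanner called it well above background. The lowest such signal was 26.4 in Colon26, 20.1 in LuM1 and 19.6 in NM11. Between 49.9% and 53.8% of probes were detected on an array. Of the labelled tissue, 6 of 12 colon epithelial markers (*Cdh1*, *Krt18*, *Krt19*, *Cdx1*, *Vil1* and *Muc2*) were not detected on any array. *Krt20*, *Cdx2*, *Lgals4*, *Cldn7* and *Krt8* were detected on all 3 arrays, and *Epcam* in LuM1 alone. *Krt20* read 651 in Colon26, 54.5 in LuM1 and 157 in NM11, and *Cdx2* read 443, 232 and 167. All 9 mesenchymal markers were detected in LuM1 and NM11 and 8 of them in Colon26, though at unlike levels. In LuM1, 4 were at least 2-fold higher and 2 lower than in Colon26 (12.9% and 11.7% of all tested genes). Against NM11, 1 was higher and 3 lower (11.1% and 8.5%). The mesenchymal markers higher in LuM1 than in Colon26 were *Thy1*, *Pdgfra*, *Col3a1* and *Fn1*, and those lower were *Col1a1* and *Col1a2*. *Col1a2* read 59896 in Colon26, 49.6 in LuM1 and 85275 in NM11. *Thy1* was not detected in Colon26 and read 19560 in LuM1 and 15416 in NM11. In RNA from whole cultures, fewer cells of a type and less RNA per cell cannot be told apart.

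Of the 10 genes, 7 were detected in each of the 3 lines. *Map2*, the dendritic MAP, *Map7*, the kinesin-1 recruiter, and *Stmn2*, a neuronal stathmin, were not detected on any array. The 6 probes of these genes gave between 4.11 and 16.6, below the lowest detected signal of their arrays. Of the 22 probes, 12 were detected on all 3 arrays and 8 on none.

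Promoter sequences were taken from RefSeq (mouse assembly GRCm38.p6), which matched 6 of the 10 genes. Shown are the 250 bases before the transcription start for the 4 matched genes that had a signal on all arrays, *Map1b*, *Map4* and *Tubb3*, which were lower in LuM1 than in Colon26, and *Map1a*, which was higher. Capitals mark GC boxes (GGGCGG, or CCGCCC on the other strand) and the TATA motif (TATAA, or TTATA on the other strand), with overlapping matches counted separately. For *Map4* the upstream of its 2 entries is given, and the other entry held 0 GC boxes and 1 TATA motif.
Map1b (chr13:99516603-99516852, minus strand): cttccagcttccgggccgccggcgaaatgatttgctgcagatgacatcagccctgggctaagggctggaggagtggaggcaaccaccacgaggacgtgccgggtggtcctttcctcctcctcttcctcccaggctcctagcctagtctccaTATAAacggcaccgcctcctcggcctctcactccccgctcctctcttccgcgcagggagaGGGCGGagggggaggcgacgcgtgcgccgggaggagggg
Map4 (chr9:109931524-109931773, plus strand): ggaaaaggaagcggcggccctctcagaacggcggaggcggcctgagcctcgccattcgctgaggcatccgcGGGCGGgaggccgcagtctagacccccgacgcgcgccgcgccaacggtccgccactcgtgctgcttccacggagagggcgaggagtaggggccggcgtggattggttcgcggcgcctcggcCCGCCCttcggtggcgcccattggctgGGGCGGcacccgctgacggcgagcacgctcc
Tubb3 (chr8:123411303-123411552, plus strand): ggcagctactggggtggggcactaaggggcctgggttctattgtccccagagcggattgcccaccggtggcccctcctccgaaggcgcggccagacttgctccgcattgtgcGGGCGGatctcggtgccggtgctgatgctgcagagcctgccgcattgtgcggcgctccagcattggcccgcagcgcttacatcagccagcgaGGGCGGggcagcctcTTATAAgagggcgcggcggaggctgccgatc
Map1a (chr2:121289352-121289601, plus strand): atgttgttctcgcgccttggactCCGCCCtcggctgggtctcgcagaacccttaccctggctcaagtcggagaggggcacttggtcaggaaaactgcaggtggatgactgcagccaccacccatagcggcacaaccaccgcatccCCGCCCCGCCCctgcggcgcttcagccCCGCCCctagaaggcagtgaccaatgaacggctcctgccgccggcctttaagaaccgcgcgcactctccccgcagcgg
*Map1a* held 4 GC boxes, *Map4* 3, *Tubb3* 2 and *Map1b* 1. In *Tubb3* the matches TTATA and TATAA overlapped at 30 bases from the start, and *Map1b* held TATAA at 99 bases from the start. Of 32851 promoter windows of the same length, 32.7% held a GC box and 22.8% held the TATA motif. All 4 windows shown held a GC box, both for the gene that was higher in LuM1 and for those that were lower. The windows of *Map2* and *Map7*, which were not detected, held 5 and 1.

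*Mapt* stood apart from the other genes by its LuM1 signal. The probe that stands for the gene (A_55_P2100149) gave 54.1 ± 7.61 in Colon26, 7925 ± 792 in LuM1 and 86.6 ± 9.50 in NM11 (scaled signal ± scanner error). LuM1 was thus the only line with a strong signal, and both other lines lay not far above the lowest detected value. The ratio was 146-fold for LuM1 over Colon26 (log2 7.19, scanner error 0.25) and 91.5-fold for LuM1 over NM11 (log2 6.52, scanner error 0.21). NM11 was 1.60-fold above Colon26 (log2 0.68, scanner error 0.26), a difference larger than the scanner error, though with scaling to *Hprt* it was 0.19 and within it. With normexp background correction, which raises dim signals, the log2 ratios of LuM1 were 6.08 over Colon26 and 5.73 over NM11.

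LuM1 was also highest on the other 3 *Mapt* probes. Probe A_55_P1954486 read 34.3 ± 6.55 in Colon26, 6904 ± 690.4 in LuM1 and 68.7 ± 8.01 in NM11, which gave 202-fold over Colon26 and 100.5-fold over NM11. Probe A_55_P2504130 read 3059.7 ± 306 in LuM1 and 22.8 ± 5.01 in NM11 and was not well above background in Colon26, so that LuM1 was 134-fold higher than NM11 and at least 116-fold higher than Colon26. A bound of this kind sets the LuM1 signal against the lowest signal detected on the other array.

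The remaining *Mapt* probe, A_66_P115262, was detected in LuM1 alone, at 229.6 ± 23.3. It was at least 8.69-fold higher there than in Colon26 and at least 11.7-fold higher than in NM11. All 4 probes were therefore more than 2-fold higher in LuM1 than in each of the other lines.

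**Figure D1:**
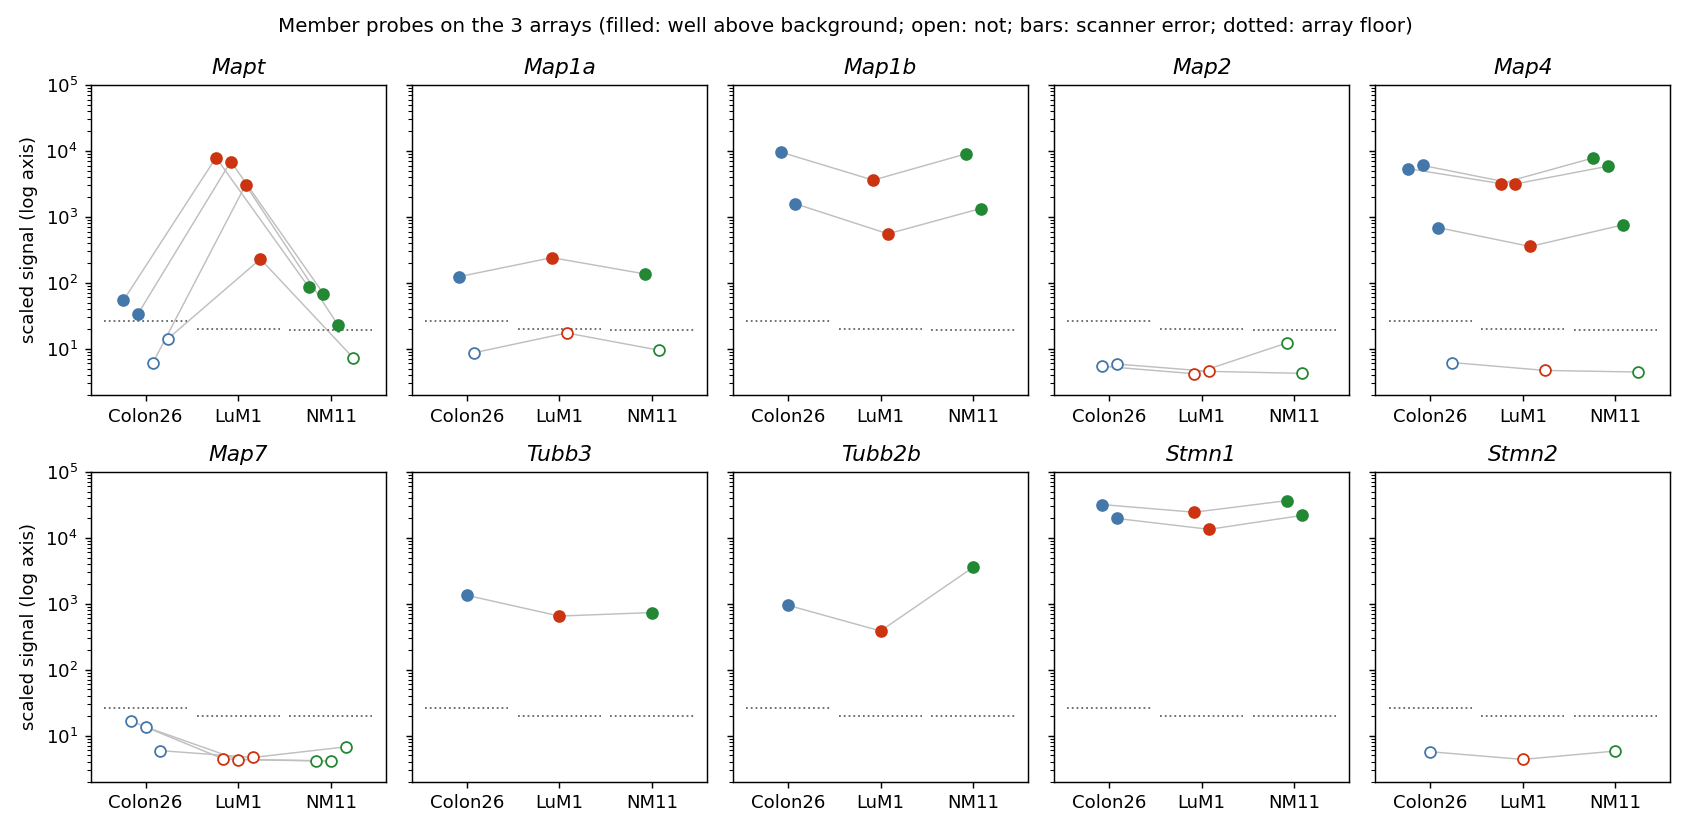
Scaled signal (log axis) of every probe of the 10 genes in Colon26, LuM1 and NM11, 1 array per line. Lines join the values of a probe, filled points were well above background, open points were not, bars are the scanner error (mostly smaller than the points) and dotted lines mark the lowest detected signal of the array. The LuM1 point rises far above the others in the *Mapt* panel alone, and *Map2*, *Map7* and *Stmn2* stay below the dotted lines.

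Among the 12249 named genes detected on all 3 arrays, *Mapt* had the 11th largest ratio of LuM1 over Colon26 and the 3rd largest of LuM1 over NM11. When genes were ordered by the smaller of both ratios, *Mapt* came 2nd. These ranks describe the value by which the gene was selected.

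The genes with the pattern most like that of *Mapt* were sought among the same 12249 genes, by the Euclidean distance of log2 signals over the 3 lines after subtracting each gene's mean. The nearest was *Ctsk*, a collagen-degrading cathepsin, at a distance of 0.73, with 42.2 in Colon26, 12603 in LuM1 and 96.7 in NM11. *Urah*, an enzyme of uric acid breakdown, followed at 0.83 with 41.2, 3976 and 97.6 in the same order of lines. The next were *Myct1* at 1.003, *Gpsm3*, a regulator of G-protein signalling, at 1.04 and *Rerg*, a small Ras-like GTPase, at 1.04. In all 5 LuM1 was the highest line by far, *Gpsm3* differed from *Mapt* in NM11 (349, against 83.2 in Colon26), and such a pattern rests on 3 arrays only.

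Nearly every measured gene next to *Mapt* on chromosome 11 was also higher in LuM1. The 5 named genes on each side in the RefSeq gene order of GRCm38.p6 were *Wnt3*, *Nsf*, *Arf2*, *Crhr1* and *Sppl2c* on one side and *Kansl1*, *Cdc27*, *Myl4*, *Gm11665* and *Itgb3* on the other. *Sppl2c* and *Gm11665* were not detected on any array. Against Colon26 the other 8 all passed a 2-fold rise in LuM1, and 7 of the 8 did so against NM11, beside 12.9% and 11.1% of all tested genes in these comparisons.

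*Kansl1*, a subunit of a histone acetyltransferase complex and the immediate neighbour, read 149 in Colon26, 2606 in LuM1 and 191 in NM11, with log2 ratios of LuM1 of 4.13 over Colon26 and 3.77 over NM11. *Cdc27*, a subunit of the anaphase-promoting complex, read 559.9, 8431 and 591 in the same order of lines, a difference of 15.1-fold over Colon26 and 14.3-fold over NM11. *Myl4*, a myosin light chain of the atrium and embryonic muscle, read 276, 2869 and 476, which gave log2 ratios of 3.38 and 2.59. In these genes Colon26 and NM11 lay close together and LuM1 lay far above both.

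On the other side of *Mapt*, *Nsf*, the ATPase that takes apart SNARE complexes after membrane fusion, read 2079 in Colon26, 19409 in LuM1 and 2519 in NM11, or 9.34-fold over Colon26 and 7.70-fold over NM11. *Arf2*, a small GTPase of vesicle traffic, read 7833, 39678 and 6949, with log2 ratios of 2.34 and 2.51. These genes were detected in all lines, so that here LuM1 added to a signal that Colon26 and NM11 already had. The further probes of *Nsf*, *Arf2*, *Kansl1*, *Cdc27*, *Myl4* and *Itgb3* were all more than 2-fold higher in LuM1 than in both other lines.

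*Itgb3*, the integrin beta 3 subunit, was detected in LuM1 alone at 6625, at least 251-fold higher than in Colon26 and at least 339-fold higher than in NM11. *Wnt3*, a Wnt ligand, was likewise detected in LuM1 alone, at 101, at least 3.81-fold and 5.14-fold higher. *Crhr1*, a receptor for corticotropin-releasing hormone, was the exception against NM11, with 469 in LuM1, 398 in NM11 and no detection in Colon26. Its second probe was dim and did not follow, with 30.5 in Colon26, 29.7 in LuM1 and 26.3 in NM11.

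A wider stretch of 30 named genes on each side was looked at after these values had been seen. The nearest measured genes beyond *Wnt3* were *C130046K22Rik* (log2 ratios of LuM1 of -0.63 over Colon26 and 0.04 over NM11) and *Gosr2* (-0.64 and -0.68). The nearest beyond *Itgb3* were *Mettl2* (-0.92 and -0.68) and *Tlk2* (-0.74 and -0.91). Among the 6th to 30th genes on each side, 6 of 37 tested against Colon26 were past 2-fold upward in LuM1 and 2 downward. The shares over all tested genes were 12.9% and 11.7%. The median log2 ratio of the 34 measured in both lines was -0.29. Against NM11, 4 of 36 were past 2-fold upward and 5 downward, beside 11.1% and 8.5%, with a median of -0.36. Among the 8 neighbours within 5 genes, the 5 measured in LuM1 and Colon26 had a median of 3.38. The 6 measured in LuM1 and NM11 had a median of 2.77.

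Counted along all chromosomes, *Mapt* lay in an unbroken run of 9 consecutive tested genes with a LuM1 signal 2-fold or more above Colon26, from *Wnt3* to *Itgb3*. It was the longest of 1484 such runs, the next longest holding 8 genes. *Mapt*, which was selected by its large LuM1 signal, is itself among the 9 genes. The rank of the run is therefore a description and not a test. The run counts *Crhr1* by the probe that stands for it, a bound against Colon26. On its dim second probe *Crhr1* was 0.97-fold, and with that probe the run would break there. Against NM11 the run with *Mapt* was shorter, 5 genes from *Mapt* to *Itgb3*, and 8 runs, this one included, were at least as long. In NM11 over Colon26, the measured neighbours ranged from -0.17 to 0.79 in log2, so that Colon26 and NM11 lay less than 2-fold apart in the stretch, except for *Crhr1*, at least 15.1-fold higher in NM11. DNA copy number was not analysed here.

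**Figure D2:**
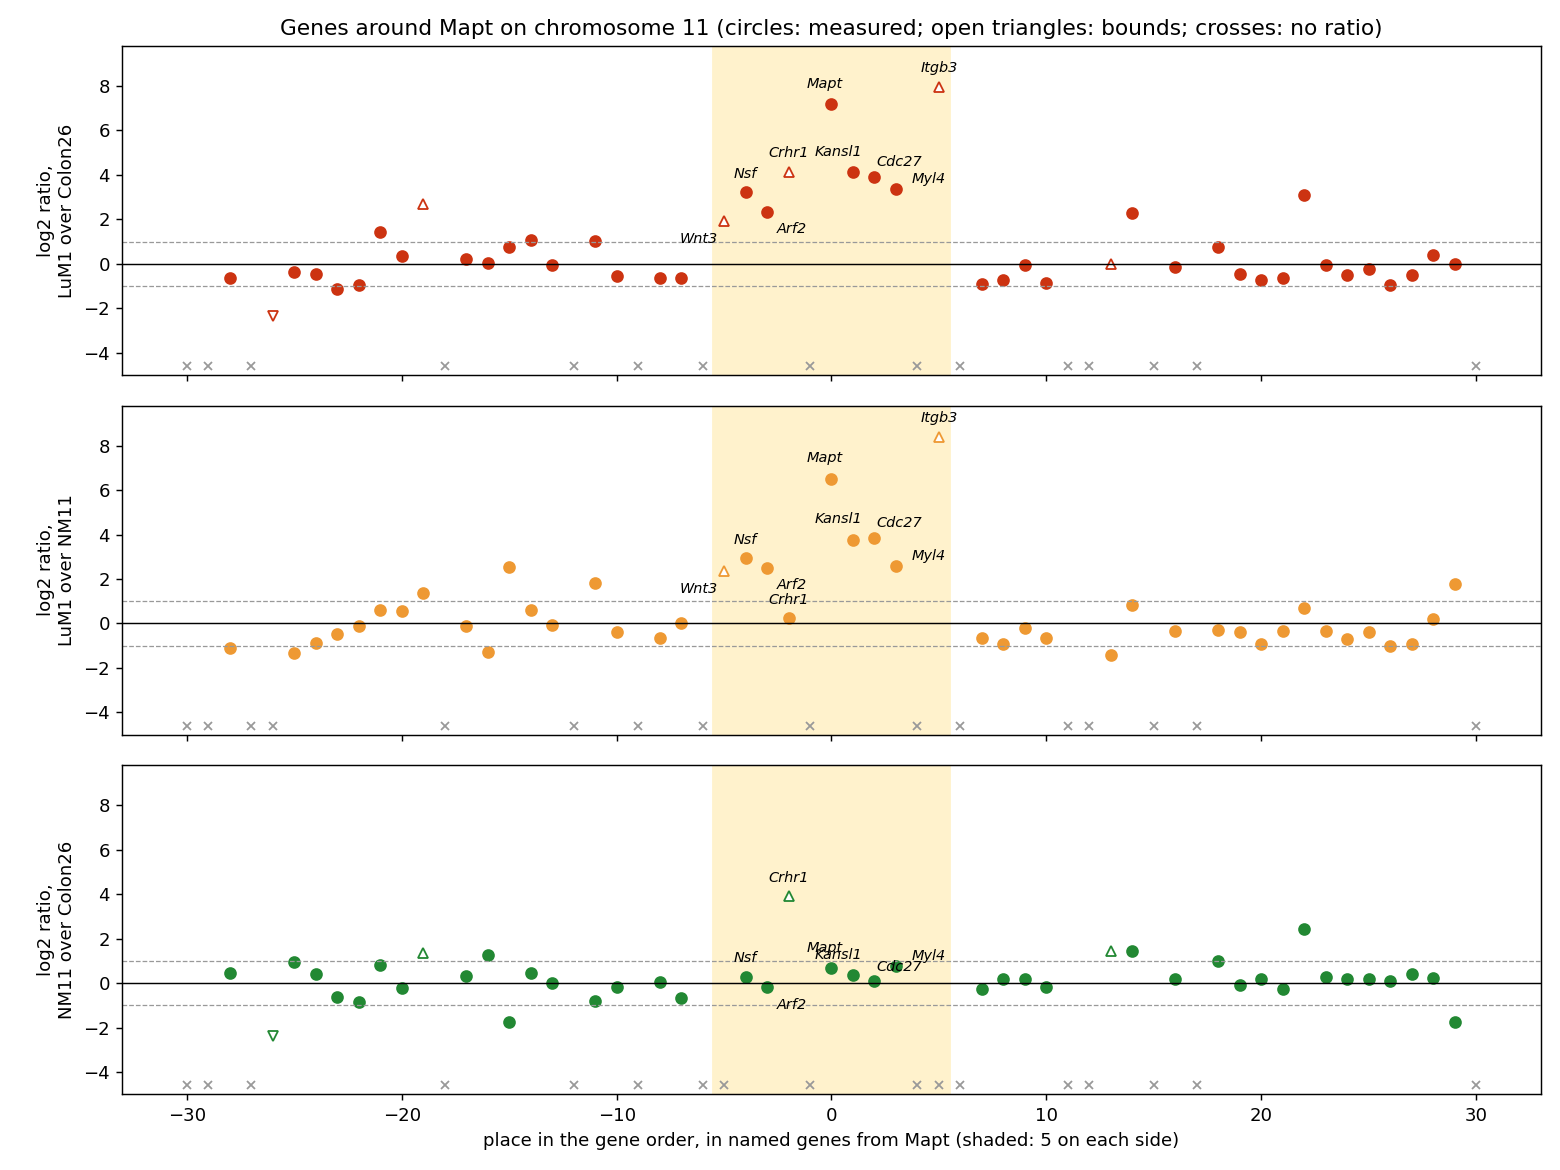
Log2 ratio of each named gene (y axis) against its place in the gene order of chromosome 11, counted in named genes from *Mapt* (x axis), for the 3 comparisons. Circles were measured in both lines, open triangles are bounds where 1 line was not detected, crosses mark genes with no ratio, and dashed lines mark 2-fold. In the shaded stretch the measured genes lie above the dashed line in both comparisons of LuM1, *Crhr1* against NM11 excepted, and the nearest measured genes outside it lie at or below 0.04.

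None of the 6 other detected microtubule genes of the set was 2-fold or more higher in LuM1 than in Colon26 or NM11. *Map1a* was also highest in LuM1, at 1.94-fold over Colon26 and 1.76-fold over NM11. With the authors' scaling it was past 2-fold against both (log2 1.40 and 1.23). Compared with Colon26, 1 of the 7 tested genes was higher in LuM1 by 2-fold or more (*Mapt*), where the share over all tested genes was 12.9%, and 3 were at least 2-fold lower (*Map1b*, *Tubb3* and *Tubb2b*), where it was 11.7%. Compared with NM11, 1 was higher (*Mapt*; 11.1% of all tested genes) and 3 were lower (*Map1b*, *Map4* and *Tubb2b*; 8.5%). Between the other lines, 1 gene was at least 2-fold higher in NM11 than in Colon26 (*Tubb2b*; 8.17%) and 0 were lower (7.74%). The median log2 ratio of the 7 genes was -0.75 for LuM1 over Colon26 and -0.58 for LuM1 over NM11, beside -0.13 and -0.11 for all genes measured. With the values as the authors scaled them, the 3 genes lower in LuM1 than in Colon26 were all less than 2-fold lower, and *Tubb2b* alone was at least 2-fold lower than in NM11.

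Among the structural MAPs, *Map1b*, the main MAP of growing axons, was lower in LuM1. It read 9605 ± 960.5 in Colon26, 3603 ± 360.3 in LuM1 and 8994 ± 899 in NM11. LuM1 thus held 37.5% of the Colon26 signal and 40.1% of the NM11 signal (log2 -1.41 and -1.32, scanner error 0.20 for both), and Colon26 and NM11 differed by less than the scanner error (log2 -0.09). The second probe (A_52_P360330) read 1580.0, 554 and 1336 and gave -1.51 and -1.27, close to the first.

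*Map1a*, the MAP1 protein of mature neurons, ran the other way. It read 124 ± 13.5 in Colon26, 241 ± 24.4 in LuM1 and 137 ± 14.2 in NM11. LuM1 was 1.94-fold higher than Colon26 (log2 0.96, scanner error 0.21) and 1.76-fold higher than NM11 (log2 0.82), just short of 2-fold, whereas NM11 and Colon26 differed by less than the scanner error (log2 0.14, and -0.35 when the arrays were scaled to *Hprt*). Its second probe was not detected in any line.

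*Map4*, the MAP of cells outside the nervous system, was lower in LuM1 on all 3 of its detected probes. The probe that stands for the gene read 5387 ± 539 in Colon26, 3197 ± 319.7 in LuM1 and 7818 ± 782 in NM11, with log2 ratios of -0.75 over Colon26 and -1.29 over NM11. The other probes gave -0.93 and -0.95 over Colon26 and -0.89 and -1.09 over NM11. The probes placed NM11 differently, since NM11 over Colon26 was 0.54 on the first probe, beyond the scanner error of 0.20, and -0.04 and 0.13 on the others, within it. Its remaining probe was not detected.

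**Figure D3:**
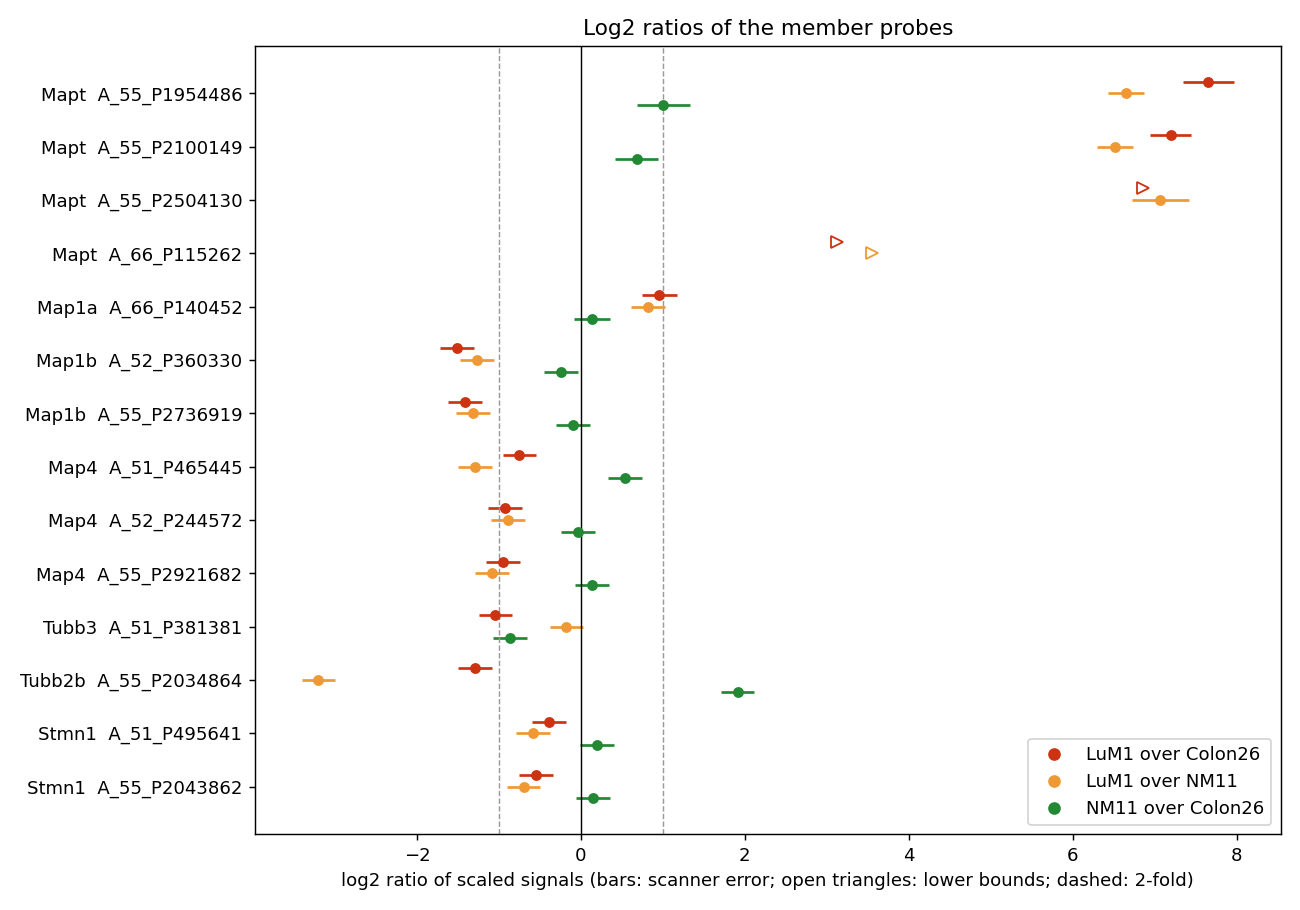
Log2 ratios of scaled signals (x axis) for each probe of the 10 genes that had a ratio (y axis), in the 3 comparisons. Bars are the scanner error of the ratio, open triangles are lower bounds and dashed lines mark 2-fold. The 4 *Mapt* probes lie beyond log2 3.1 in both comparisons of LuM1, and *Tubb2b* has the lowest ratio, -3.20 for LuM1 over NM11.

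The beta-tubulins of neurons differed between the lines in different ways. *Tubb3* read 1336 ± 134 in Colon26, 647 ± 64.9 in LuM1 and 732 ± 73.3 in NM11. Both sublines lay below Colon26, by -1.05 for LuM1 and -0.87 for NM11 on the log2 scale (scanner error 0.20). The LuM1 ratio fell short of 2-fold without scaling (-0.94), with *Hprt* (-0.94), with normexp (-0.97) and with the authors' scaling (-0.60). LuM1 and NM11 differed by less than the scanner error (log2 -0.18, which turned to 0.41 with scaling to *Hprt* and to 0.24 with the authors' scaling).

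*Tubb2b* read 944 ± 94.5 in Colon26, 385 ± 38.7 in LuM1 and 3550.2 ± 355 in NM11. By the probes that stand for the genes, it was the only one of the 10 for which all 3 lines were more than 2-fold apart. The highest line was NM11 and the lowest LuM1, although LuM1 over Colon26 was -0.85 with the authors' scaling. NM11 was 3.76-fold above Colon26 (log2 1.91), and LuM1 was 2.45-fold below Colon26 (log2 -1.29) and 9.22-fold below NM11 (log2 -3.20), each with a scanner error of 0.20. *Tubb2b* and *Mapt* thus took opposite places in LuM1.

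*Stmn1*, the stathmin of dividing cells, was detected in all lines on both of its probes. It read 31782 ± 3178 in Colon26, 24299 ± 2429.9 in LuM1 and 36415 ± 3641.5 in NM11. LuM1 was lower by -0.39 in log2 than Colon26 (0.06 with the authors' scaling) and by -0.58 than NM11 (0.01 with scaling to *Hprt*), and NM11 and Colon26 were within the scanner error (0.20, and -0.29 with scaling to *Hprt*). The second probe gave -0.55, -0.70 and 0.15 for the same comparisons. *Stmn2*, its neuronal relative, was below detection throughout.

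**Figure D4:**
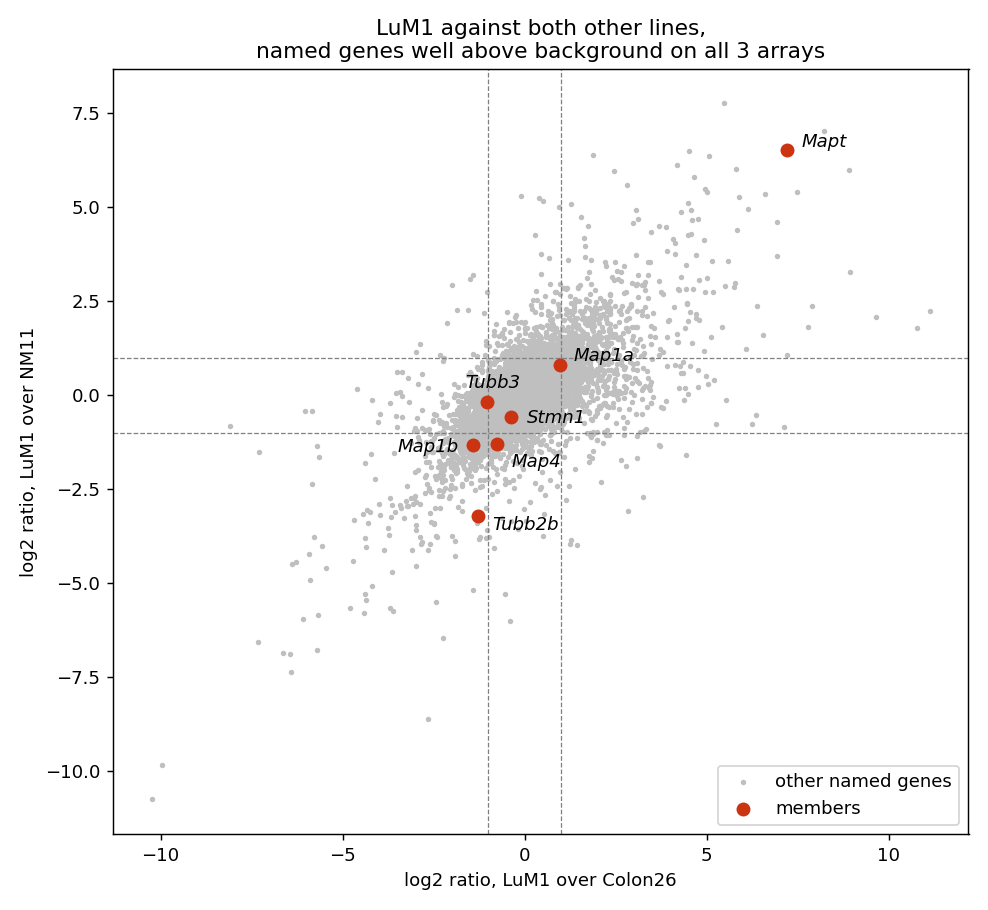
Log2 ratio of LuM1 over NM11 (y axis) against LuM1 over Colon26 (x axis) for the 12249 named genes detected on all 3 arrays (grey). The 7 detected microtubule genes of the set are in red. Both axes share the LuM1 array, and dashed lines mark 2-fold. *Mapt* lies at the upper right edge at 7.19 and 6.52, and the other 6 genes lie between -1.41 and 0.96 on the x axis.

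Of 17 other tubulin genes, 16 were tested. In LuM1 over Colon26, 2 were at least 2-fold higher and 0 lower, beside 12.9% and 11.7% of all tested genes. The median log2 ratio of the list was -0.38, beside -0.13 for all genes measured. In LuM1 over NM11, 2 were higher and 3 lower (*Tuba4a*, *Tubb2a* and *Tubb6*, named after their values were seen), beside 11.1% and 8.5%. The list median was -0.67, beside -0.11. The 2 that were higher in LuM1 than in both lines were *Tuba8* and *Tubg2*. *Tuba8*, an alpha-tubulin of restricted expression, was not detected in Colon26 and read 1014 in LuM1 and 282 in NM11, a ratio of at least 38.4-fold to Colon26 and of 3.60-fold to NM11. *Tubg2*, a gamma-tubulin, read 46.1 in Colon26, 302 in LuM1 and 116 in NM11, 6.54-fold over Colon26 and 2.61-fold over NM11.

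Some tubulins were highest in NM11, as *Tubb2b* was. In NM11 over Colon26, 4 of the 16 were at least 2-fold higher (*Tuba4a*, *Tuba8*, *Tubb2a* and *Tubg2*) and 0 lower, beside 8.17% and 7.74% of all tested genes. Of these, *Tuba8* and *Tubg2* were higher still in LuM1. *Tuba4a* read 235 in Colon26, 461 in LuM1 and 1889 in NM11, and *Tubb2a*, the close relative of *Tubb2b*, read 2334, 2202 and 8069. The probes of *Tubb2a* and *Tubb2b* match near-identical genes, and how far each probe picks up the other transcript was not tested.

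Of 28 other MAP and stathmin genes, 27 were on the array and 21 were tested in each comparison of LuM1. In LuM1 over Colon26, 3 were higher (*Mapre2*, *Clip2* and *Dclk1*) and 2 lower (*Map6* and *Map7d3*), beside 12.9% and 11.7% of all tested genes. The list median was -0.11, beside -0.13 for all genes measured. In LuM1 over NM11, 0 were higher and 2 lower (*Dclk1* and *Stmn3*), beside 11.1% and 8.5%. The list median was -0.18, beside -0.11. No gene of this list reached 2-fold in the same direction against both lines, although *Clip2* missed it narrowly (2.92-fold over Colon26 and 1.998-fold over NM11). The count higher in LuM1 over NM11 was 1 without scaling and with median scaling, and 5 with scaling to *Hprt* and with the authors' scaling. *Dclk1*, a doublecortin-like kinase, was not detected in Colon26 and read 74.2 in LuM1 and 374 in NM11.

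Tau is phosphorylated by GSK3, CDK5, MARK, BRSK and tau-tubulin kinases, by DYRK1A and by FYN, and dephosphorylated by PP2A. Of 19 genes of these kinases, their activators and PP2A subunits, 15 were tested in LuM1 over Colon26, with 2 higher (*Mark4* and *Ttbk2*) and 1 lower (*Ppp2r2b*), and 16 in LuM1 over NM11, with 2 higher (*Brsk1* and *Ttbk2*) and 1 lower (*Mark1*). Among all tested genes, 12.9% were higher and 11.7% lower against Colon26, and 11.1% and 8.5% against NM11. The list medians were -0.11 and -0.08, beside -0.13 and -0.11 for all genes measured. *Ttbk2*, a tau-tubulin kinase, was the only gene of the list higher against both lines, at 176 in Colon26, 433 in LuM1 and 169 in NM11 (2.47-fold and 2.56-fold). Its dimmer probe gave log2 0.59 and 0.84, short of 2-fold.

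Of 27 tubulin-modifying and microtubule-severing enzymes, 24 were tested in LuM1 over Colon26, with 5 higher (*Ttll1*, *Ttll7*, *Atat1*, *Hdac6* and *Agbl4*) and 2 lower (*Ttl* and *Ttll6*), and 23 in LuM1 over NM11, with 1 higher (*Agbl4*) and 1 lower (*Ttll11*). The count higher against NM11 became 7 with scaling to *Hprt* and 6 with the authors' scaling. Among all tested genes, 12.9% were higher and 11.7% lower against Colon26, and 11.1% and 8.5% against NM11. The list medians were 0.16 and -0.07, beside -0.13 and -0.11 for all genes measured. *Agbl4*, a carboxypeptidase that trims polyglutamate chains from tubulin, was detected in LuM1 alone at 191, at least 7.24-fold over Colon26 and at least 9.77-fold over NM11, on 1 of its 2 probes. All 6 tubulin folding cofactors were detected in every line, and *Tbcel* was past 2-fold in LuM1 over Colon26 (log2 1.34) and in NM11 over Colon26 (1.42).

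**Figure D5:**
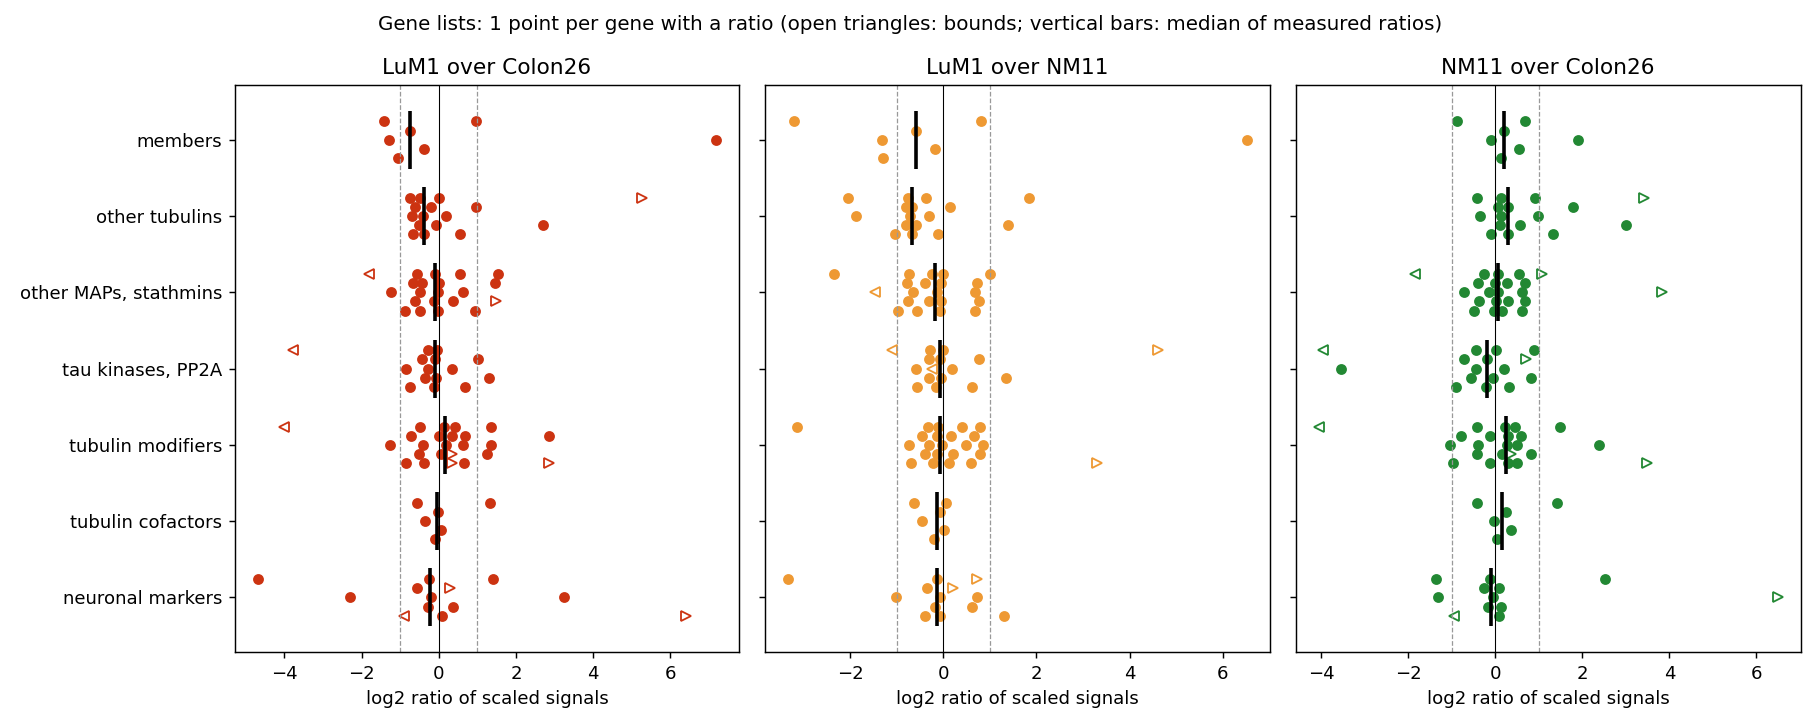
Log2 ratios of scaled signals (x axis) for the set of microtubule genes (members), 5 related gene lists and neuronal markers (y axis), in 3 comparisons. Each gene with a ratio is 1 point. Open triangles are bounds, black bars are the median of the measured ratios and dashed lines mark 2-fold. The medians of all lists lie within 1 of 0 on the log2 scale, and *Mapt* is the right-most point among the members in both comparisons of LuM1.

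Of 25 neuronal markers, 11 were detected in Colon26, 13 in LuM1 and 11 in NM11, and 11 were not detected on any array, among them *Nefh*, *Prph*, *Syt1*, *Elavl3*, *Ncam1*, *Chga* and *Neurod1*. Their summed signal was 15649 in Colon26, 13937 in LuM1 and 12390.2 in NM11. In LuM1 over Colon26, 3 of 14 were at least 2-fold higher and 2 lower, beside 12.9% and 11.7% of all tested genes. In LuM1 over NM11, 1 of 13 was higher and 2 were lower, beside 11.1% and 8.5%.

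The neurofilament genes *Nefm* and *Nefl* lay on the opposite side from *Mapt*, with LuM1 the lowest line. *Nefm*, the medium chain, read 4434 in Colon26, 171 in LuM1 and 1718 in NM11 (log2 ratios of LuM1 of -4.70 and -3.33). *Nefl*, the light chain, read 4168, 841 and 1685 (-2.31 and -1.003). *Eno2*, the neuronal enolase, was higher in LuM1, at 1579.9, 4159 and 1693 (1.40 and 1.30). *Gap43*, a growth cone protein, was not detected in Colon26 and read 2249 in LuM1 and 2364 in NM11, and *Syn1*, a synaptic vesicle protein, read 31.6, 300.9 and 181, so that these were high in both sublines. *Rest*, the repressor of neuronal genes, read 2488 in Colon26, 2543 in LuM1 and 2474 in NM11.

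Markers of other cell types were looked at beside the *Mapt* signal. Of 8 myeloid markers, 4 were detected in Colon26, 5 in LuM1 and 4 in NM11, with a summed signal of 7034 in Colon26, 17046 in LuM1 and 6213 in NM11, and *Ptprc*, *Adgre1* and *Tyrobp* were not detected on any array. Of the 5 tested myeloid markers, 3 passed 2-fold upward in LuM1 and 2 stayed within 2-fold, against Colon26 and against NM11 alike. Among all tested genes, 12.9% were higher against Colon26 and 11.1% against NM11. The 2 within 2-fold were *Itgam* (1.36-fold over Colon26 and 1.60-fold over NM11) and *Csf1r* (1.01-fold and 1.02-fold). All 5 were named after their values were seen. *Cd68*, a lysosomal protein of macrophages, read 172 in Colon26, 5251 in LuM1 and 299 in NM11, a ratio of 30.5-fold to Colon26 and 17.5-fold to NM11. *Cd14*, a co-receptor for lipopolysaccharide, was 3.62-fold and 4.23-fold higher, and *Lyz2*, a lysozyme, was detected in LuM1 alone at 112, at least 4.24-fold and 5.72-fold higher. Of 8 glial markers, 3, 4 and 2 were detected in the same order of lines, with summed signals of 276, 277 and 148, and 1 of 7 endothelial markers was detected in each line. The summed signal of the 12 colon epithelial markers was 1413 in Colon26, 552 in LuM1 and 523 in NM11. The part of these markers in the *Mapt* signal was not tested.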

How the data were processed

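Total RNA of Colon26, LuM1 and NM11, 3 days in culture, was labelled with Cy3 from 0.1 micrograms and hybridised to 1 Agilent SurePrint G3 mouse array per line by the authors. The deposited files hold the scanner's processed signal, a background-corrected linear intensity per spot, written by Agilent Feature Extraction 11.5.1.1 per the labels. The authors' series table holds the same intensity multiplied by 1 factor per array (0.654 in Colon26, 0.829 in LuM1 and 0.706 in NM11), and it served as an alternative.

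Control spots and spots that the scanner marked as outliers (74 to 137 per array) were left out, and repeated spots were averaged. Each array was scaled so that the 75th percentile of its non-control spots (581 in Colon26, 625 in LuM1 and 552 in NM11 as deposited) became their geometric mean. The spots of a repeated probe varied by a median SD of 0.035 to 0.040 in log2, which is technical. No spot was saturated. A gene was represented by its probe with the highest mean log2 signal, and probes were named by matching accessions to RefSeq symbols. A gene was tested in a comparison where it was well above background on 1 of both arrays, and counted as higher or lower from 2-fold. Where 1 array was not well above background, the ratio is a bound against the higher of the probe's own signal and the lowest detected signal of that array.

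Named were all probes of the 10 genes, genes of the microtubule and *Rest* lists that were past 2-fold in LuM1 against both lines, the 5 genes nearest in pattern to *Mapt*, and the 5 named genes on each side of it. Genes outside this rule were named after their values had been seen. The members and lists were chosen with earlier results of these data known. The code for the ratios was run on simulated arrays, with planted changes far beyond 2-fold in genes detected on all 3 arrays. That run checked the code only. It covered neither dim signals nor culture and labelling differences. Alternatives changed the scaling (none, median, *Hprt*, quantile), the background correction (normexp with an offset of 50, limma 3.58.1 in R 4.3.3), the detection rule, the choice of probe and the fold threshold (4), and used the authors' values. Python 3.11.15, numpy 2.4.6 and pandas 2.3.3 were used. With 1 array per line, no p-value was computed.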

Additional observations from a re-analysis of the deposited data

How the results depend on the processing

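Of 210 recomputed log2 ratios of the 7 detected genes, 169 moved by less than the scanner error and 41 by more. Of the 210, 7 changed sign and 0 of those past 2-fold turned. The looser detection rule and no filter could not move ratios of genes detected on all arrays. The probe brightest in LuM1 was the probe already used for each of these genes. A mean over probes could not move a gene with 1 probe. Such fixed ratios count among the 169. *Mapt*, LuM1 over Colon26, was 6.08 with normexp, 7.64 with the authors' values and 6.21 as the mean over its probes. LuM1 over NM11 was 7.10 with scaling to *Hprt*, 5.73 with normexp, 6.93 with the authors' values and 5.95 as the mean over probes, and NM11 over Colon26 was 0.19 with *Hprt* and 0.35 with normexp. Against Colon26, the count of genes higher in LuM1 was 2 without scaling, with *Hprt* and with the authors' values (*Map1a* added), and the count lower was 0 with the authors' values and at 4-fold, 2 without scaling, with *Hprt* and with normexp (*Tubb3* lost), and 4 with the looser detection rule and with no filter (*Map7* added). Against NM11, 2 were higher with *Hprt* and with the authors' values, and 1 (*Tubb2b*) was lower with *Hprt*, with the authors' values and at 4-fold. In NM11 over Colon26, 2 were higher with the looser detection rule and with no filter (*Map2* added) and 0 at 4-fold, and 1 was lower with *Hprt* (*Tubb3*), with the looser rule and with no filter (*Map7*).

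The 7 changes of sign were *Stmn1* with the authors' values (0.06, LuM1 over Colon26) and with *Hprt* (0.01, LuM1 over NM11; -0.29, NM11 over Colon26), *Tubb3* in LuM1 over NM11 without scaling (0.00), with *Hprt* (0.41) and with the authors' values (0.24), and *Map1a* in NM11 over Colon26 with *Hprt* (-0.35). The authors' values moved the median log2 ratio of all genes by 0.45 (LuM1 over Colon26) and 0.41 (LuM1 over NM11), *Hprt* by 0.10, 0.59 and -0.49 in the 3 comparisons, and no scaling by 0.11 and 0.18. The share of higher among all genes past 2-fold was 52.5%, 56.6% and 51.4% in the 3 comparisons, and became 77.7% and 81.4% for LuM1 over Colon26 and over NM11 with the authors' values, 87.8% (LuM1 over NM11) and 20.1% (NM11 over Colon26) with *Hprt*, and 68.6% for LuM1 over NM11 without scaling. Over all alternatives, the count of genes higher ranged from 848 to 3038 in LuM1 over Colon26, from 657 to 3581 in LuM1 over NM11 and from 469 to 1811 in NM11 over Colon26, and the count lower from 538 to 2716, from 352 to 1843 and from 394 to 2727. Of the 8 detected neighbours of *Mapt*, 7 to 8 stayed at least 2-fold higher than in Colon26 (*Wnt3* was below 4-fold) and 7 than in NM11. In LuM1 over Colon26, higher counts ranged from 2 to 4 for other tubulins, 0 to 5 for other MAPs and for tau kinases, and 2 to 8 for tubulin modifiers. In LuM1 over NM11 they ranged from 0 to 2, 0 to 5, 1 to 4 and 1 to 7 for tubulins, MAPs, tau kinases and tubulin modifiers. The causes were not tested. No paired analysis was possible because each line had 1 array. Near the lowest detected signals, the *Mapt* values of Colon26 and NM11 depend on the background estimate, which limits how firmly the size of the ratios can be read.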
